A study of Mus musculus with 39 samples.

Results

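The comparison set 3 libraries of acceptor microglia at 300 min of co-culture against 3 libraries of acceptors at 0 min, 6 of the 39 libraries of the series, chosen by their labels. The study asked how messenger RNA changes in primary mouse microglia, the resident macrophages of the brain, when cells loaded with alpha-synuclein and unloaded cells share a culture. Aggregates of alpha-synuclein mark Parkinson's disease. Acceptors were C57BL/6 microglia that received no alpha-synuclein, were kept in T25 flasks and stained with a violet cell tracer for 15 min. At 300 min they had been in a shared culture, without touching, with donors, which were C57BL/6 microglia given 1 µM alpha-synuclein labelled with Atto-488 for 14 h. Acceptors at 0 min carried the same stain and had not entered co-culture. The 3 control libraries at 0 min have no further treatment in their labels, and the letters TW in the donor and acceptor names are not explained there. All cells came from newborn mice, those of a pair of brains were pooled per flask, and microglia were shaken off an astrocyte layer after 7 to 10 days. No acceptors kept alone for 300 min are among the libraries used here, so time in co-culture and time since staining cannot be told apart.

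Microglia sense their surroundings through receptors for debris, cytokines and nucleotides. Within minutes to hours of such a signal, immediate early genes such as Fos are followed by cytokines, by feedback inhibitors of NF-kB and of cytokine receptors, and by genes of adhesion and metabolism. Many of those transcripts are short lived, so a level late in a time course can have passed its peak.

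Levels are counts-per-million values (CPM), reads per gene scaled to library totals adjusted by the TMM method, and are given for replicates 1, 2 and 3 in that order. A gene is called, or said to have risen or fallen, where edgeR's quasi-likelihood test over all 39 libraries gave a Benjamini-Hochberg adjusted p under 0.05. Differences are log2 fold changes from that fit, with their standard error (SE). The 6 libraries held 8649169 to 13473170 reads, and a floor of 3 counts was worth 0.203 to 0.393 CPM. Replicate 2 at 300 min was the shallowest and detected 11951 genes, against 12716 to 13601 in the other 5. Its log-scale Pearson correlation with the other 5 was 0.895 to 0.904, and among those 5 it was 0.941 to 0.967. Results are therefore given with and without it. Library numbers in the titles fall into 3 runs, each holding 1 library of every group. Libraries of the same run deviated together weakly (Pearson r of 0.136 to 0.269 between the times). Run 2 holds replicate 1 at 0 min and replicate 3 at 300 min, run 3 holds replicates 2 and 1, run 1 holds replicates 3 and 2. Leaving out replicate 2 at 300 min therefore leaves run 1 without an acceptor library at that time, while its 0 min library stays.

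Defining microglial genes were present in all 6 libraries. Csf1r, the receptor that microglia need to survive, had 3007, 2876 and 2654 CPM at 0 min and 3116, 8696 and 2729 at 300 min. The 17 microglia and macrophage markers summed to 16679, 18745 and 18703 CPM at 0 min and to 20507, 44244 and 17508 at 300 min, with replicate 2 at 300 min far above the other 5. Markers of astrocytes summed to 14.3 to 47.5 CPM, of neurons to 4.23 to 33.5, of fibroblasts and vessels to 26.1 to 65.1, of other immune cells to 0.271 to 5.63 and of border macrophages to 1015 to 1387. The oligodendrocyte list summed to 202 to 361 CPM, led by Mbp and Cnp. Of the 7 marker lists, all had 0 members called. Among those markers Gjb6, Col3a1, Cd163 and Lyve1 had no reads in any of the 6 libraries, and 2 genes of the other-immune list, Ccr2 and S100a8, were highest in replicate 2 at 300 min, at 3.41 and 2.23 CPM. The neuronal sum was highest in both libraries of run 3, at 33.5 CPM at 0 min and 31.2 at 300 min, against 4.23 to 10.6 elsewhere. Because these are bulk libraries, fewer cells of a type and less RNA per cell cannot be told apart.

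Cytip alone rose (1 gene), and 0 genes fell. Cytip, the cytohesin-interacting protein, is a cytoplasmic scaffold of blood cells that binds the cytohesin activators of ARF GTPases and loosens adhesion through the integrin LFA-1. The gene lies on the minus strand of chromosome 2 (58129137 to 58195532, GRCm38). It had 4.61, 11.6 and 5.77 CPM at 0 min and 59.7, 76.6 and 51.1 at 300 min. All 3 libraries at 300 min lay above all 3 at 0 min. The means were 7.32 ± 3.74 and 62.5 ± 13 CPM (SD, n = 3 each), a difference of 3.09 ± 0.55 log2 units (SE, edgeR Benjamini-Hochberg adjusted p = 0.0365). Within runs 1, 2 and 3 of library numbers the difference was 3.69, 3.42 and 2.35. Of 13034 genes tested, this call is 0.00767% higher and 0% lower.

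The size of the Cytip difference moved little across settings while its adjusted p moved much. Without replicate 2 at 300 min it was 2.92 ± 0.57 log2 units and was no longer called (adjusted p = 0.195). The call was also lost without replicate 1, 2 or 3 at 0 min (adjusted p = 0.895, 0.0595 and 0.717) or replicate 1 at 300 min (0.0662), and it was kept without replicate 3 at 300 min (0.0273). Over 16 alternatives the log2 difference ranged from 2.84 to 3.59 and the adjusted p from 2.18e-05 to 0.895, with 7 of them calling the gene. At an unadjusted p under 0.05, 1045 genes (8.02%) passed.

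The window around the RefSeq start of Cytip is shown because the result rests on this gene, with the starts of Vegfa, Fosl2 and Bcl3, described further on, for comparison. Each window runs from 250 bases before to 50 after the start (RefSeq, GRCm38.p6, printed along the gene's strand). The Cytip start used here lies inside the GENCODE gene, whose annotation begins further upstream. Capitals mark matches, on either strand, to a consensus for NF-kB or for the interferon-stimulated response element (ISRE).
Cytip, chr2:58160073-58160372, minus strand: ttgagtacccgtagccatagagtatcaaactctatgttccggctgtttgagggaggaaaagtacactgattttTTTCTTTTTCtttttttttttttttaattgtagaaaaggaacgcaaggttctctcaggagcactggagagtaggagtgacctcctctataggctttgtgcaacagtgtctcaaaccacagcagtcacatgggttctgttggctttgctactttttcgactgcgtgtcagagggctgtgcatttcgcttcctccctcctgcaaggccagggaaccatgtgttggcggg
Vegfa, chr17:46032328-46032627, minus strand: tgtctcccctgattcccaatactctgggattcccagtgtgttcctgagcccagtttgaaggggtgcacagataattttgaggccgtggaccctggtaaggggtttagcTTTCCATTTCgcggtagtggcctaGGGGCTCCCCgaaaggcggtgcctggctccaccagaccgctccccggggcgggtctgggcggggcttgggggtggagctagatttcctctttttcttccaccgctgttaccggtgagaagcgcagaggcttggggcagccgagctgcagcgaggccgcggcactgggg
Fosl2, chr5:32136222-32136521, plus strand: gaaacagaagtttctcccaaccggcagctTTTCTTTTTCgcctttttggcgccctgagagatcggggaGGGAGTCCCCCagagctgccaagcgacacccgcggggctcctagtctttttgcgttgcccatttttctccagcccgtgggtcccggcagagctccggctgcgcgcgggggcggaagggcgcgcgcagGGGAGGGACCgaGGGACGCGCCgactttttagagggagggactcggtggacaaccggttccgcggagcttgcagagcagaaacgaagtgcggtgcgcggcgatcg
Bcl3, chr7:19822706-19823005, minus strand: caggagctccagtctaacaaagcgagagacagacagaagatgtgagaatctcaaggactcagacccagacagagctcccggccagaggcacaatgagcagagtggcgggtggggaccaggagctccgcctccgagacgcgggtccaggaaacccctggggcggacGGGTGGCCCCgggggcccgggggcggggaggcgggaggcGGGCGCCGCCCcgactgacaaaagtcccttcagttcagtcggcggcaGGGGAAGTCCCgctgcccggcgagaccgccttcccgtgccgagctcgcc

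The Cytip window held an ISRE match at −177 to −168 from the start and no NF-kB match. The windows of Vegfa and Fosl2 held both, and that of Bcl3 held NF-kB matches only, some of which overlap each other. Of the 10441 windows of tested genes used from the RefSeq table, 3.23% held an ISRE match and 66.9% an NF-kB match. None of these 4 windows held the cyclic AMP response element TGACGTCA (3.29% of windows), AP-1 letters TGANTCA (5.22%), the heat shock element (0.383%), amino acid response element letters TGATGNAA (2.25%) or the TATA letters TATAAA (7.16%). These are matches of letters and not measured binding.

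Through the time course, Cytip in acceptors had 13.3, 9.27 and 6.26 CPM at 15 min, 22.8, 27.9 and 19.3 at 30 min, 38.4, 55.8 and 51.8 at 60 min and 58.5, 98.7 and 97.8 at 150 min. The level at 300 min overlapped that at 150 min and was not called against it (−0.45 ± 0.50 log2 units, adjusted p = 0.849). Donors had 23, 22.5 and 21.9 CPM at 0 min and 11.2, 7.17 and 8.90 at 300 min, lower in every library. Donors alone gave no call for this gene (−1.30 ± 0.53 log2 units, adjusted p = 1). At 300 min acceptors had higher Cytip CPM than donors in every library, whereas at 0 min theirs was lower in every library. The difference between the changes of both populations was 4.40 ± 0.76 log2 units and was called (edgeR Benjamini-Hochberg adjusted p = 0.0212), 1 of 13034 genes (0.00767%). Leaving out a library in turn from the 12 gave adjusted p-values of 0.0152 to 0.206 and kept the call in 4 cases, and without replicate 2 of acceptors at 300 min the difference was 4.23 (adjusted p = 0.0723).

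**Figure D1:**
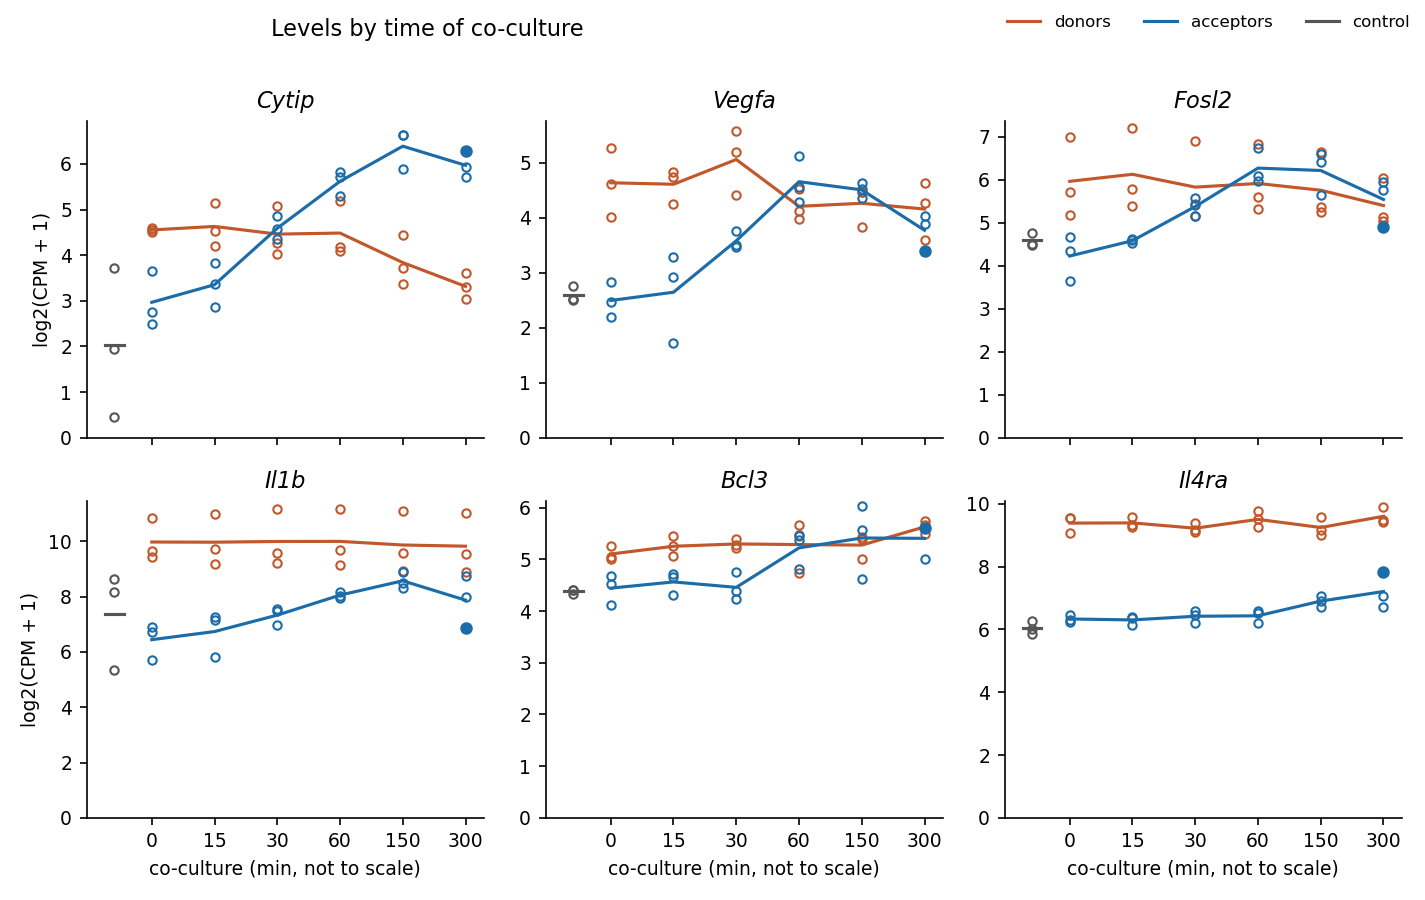
Levels of 6 genes by time of co-culture, as log2(CPM + 1), with 1 circle per library and lines through the mean log2 values of acceptors (blue) and donors (orange-brown), the control standing at the left (grey) and replicate 2 of acceptors at 300 min filled. Cytip in acceptors had a mean of 85.0 CPM at 150 min and 62.5 at 300 min, while donors stood at 9.10, and Il4ra in acceptors had a mean of 119 CPM at 150 min and of 155 at 300 min, or 119 at 300 min without replicate 2.

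Known partners of Cytip were not called. Among the cytohesins, the ARF activators it binds, Cyth4 had 283, 349 and 360 CPM at 0 min and 347, 1027 and 371 at 300 min. Cyth2 had 38.6, 33.1 and 41.8 CPM and then 40.2, 30.3 and 31.3. Cyth4 stood high in replicate 2 only, and Cyth2 overlapped between times. The LFA-1 subunit Itgal had 37.0, 16.1 and 22.8 CPM and then 27.3, 12.3 and 33.1, and the shared beta chain Itgb2 160, 148 and 141 and then 184, 54.1 and 160. Neither was called, and Itgb2 was lowest in replicate 2 at 300 min. These partners were chosen after values were seen, and the levels of the other cytohesins, Cyth1 and Cyth3, are not given.

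A set of 18 genes, Cytip among them, met a rule set after values were seen, namely an unadjusted p under 0.01 without replicate 2, no overlap between the 3 libraries of each time and a mean of at least 5 CPM at 1 of the times. None but Cytip was called, and 14 stood higher and 4 lower at 300 min. By that choice their separation is a description and supports nothing. Over all genes tested, 4.05% had all 3 libraries at 300 min above all 3 at 0 min and 4.08% had them below, and without replicate 2 these shares were 8.8% and 7.27%.

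Secreted factors stood among the higher ones. Thbs1, thrombospondin 1 of the extracellular matrix, an inhibitor of vessel growth and an activator of latent TGF-beta, had 0.948, 0.695 and 2.47 CPM at 0 min and 7.87, 4.19 and 12.4 at 300 min. Its fitted difference was 2.60 ± 0.65 log2 units (adjusted p = 0.425), and 2.90 without replicate 2, whose value was the lowest of the 3 at 300 min. Vegfa, the vascular growth factor that hypoxia induces, had 6.10, 3.55 and 4.54 CPM and then 13.7, 9.56 and 15.4. It differed by 1.45 ± 0.38 log2 units, 1.62 without replicate 2, and was called in neither case (adjusted p = 0.425 and 1). Emilin2, a matrix glycoprotein, had 18, 14.3 and 8.91 CPM at 0 min and 23.7, 27.9 and 22.8 at 300 min.

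Regulators of transcription and signalling were next. Fosl2, an AP-1 subunit of the FOS family, had 19.3, 24.6 and 11.6 CPM and then 53.6, 28.8 and 61.0, with replicate 2 the lowest at 300 min (1.37 ± 0.50 log2 units, 1.63 without replicate 2). Bcl3, an atypical inhibitor of NF-kB that acts in the nucleus with p50 and p52, had 16.3, 22.1 and 24.7 CPM and then 47.5, 47.6 and 31.3. Stk40, a pseudokinase, had 30.3, 29.0 and 29.6 CPM and then 54.5, 67.5 and 54.8. Il4ra, the receptor chain shared by interleukins 4 and 13, had 77.3, 74.9 and 87.5 CPM and then 133, 227 and 105, a difference of 0.96 ± 0.22 log2 units that was 0.58 without replicate 2, the highest library.

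Metabolic and transport genes made up most of the rest. Got1, the cytosolic aspartate aminotransferase, had 52.6, 41.3 and 58.2 CPM and then 92.8, 66.0 and 95.0. Slc4a11, a membrane transporter of the bicarbonate transporter family, had 1.15, 1.62 and 1.40 CPM and then 5.80, 9.83 and 8.19. Emb, a chaperone of lactate transporters, and Atpaf1, an assembly factor of mitochondrial ATP synthase, were low, at 2.54 and 2.27 CPM on average at 0 min and 6.43 and 5.37 at 300 min. Ap4e1, a subunit of the AP-4 sorting complex, had 80.8 CPM in replicate 2 at 300 min against 29.6 and 35.8 in the others. Srp54b encodes a signal recognition particle subunit with near-identical copies, so its reads may be split among them and its values are uncertain.

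Lower values at 300 min stood in 4 of the 18. Bmt2, a methyltransferase-like sensor of S-adenosylmethionine that restrains mTORC1, had 268, 161 and 253 CPM at 0 min and 79.7, 151 and 139 at 300 min. The difference was −0.88 ± 0.31 log2 units, and −0.75, −0.95 and −1.01 within runs 1, 2 and 3. Dyrk3, a kinase that dissolves stress granules, had 6.50, 6.95 and 11.3 CPM and then 2.67, 3.54 and 3.33. Kif3c, a kinesin motor subunit, had 13.5, 6.80 and 8.08 CPM and then 3.74, 4.06 and 5.27, and Cnot11, a subunit of the CCR4-NOT deadenylase, 11.7, 9.97 and 10.1 and then 6.42, 4.32 and 5.69.

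**Figure D2:**
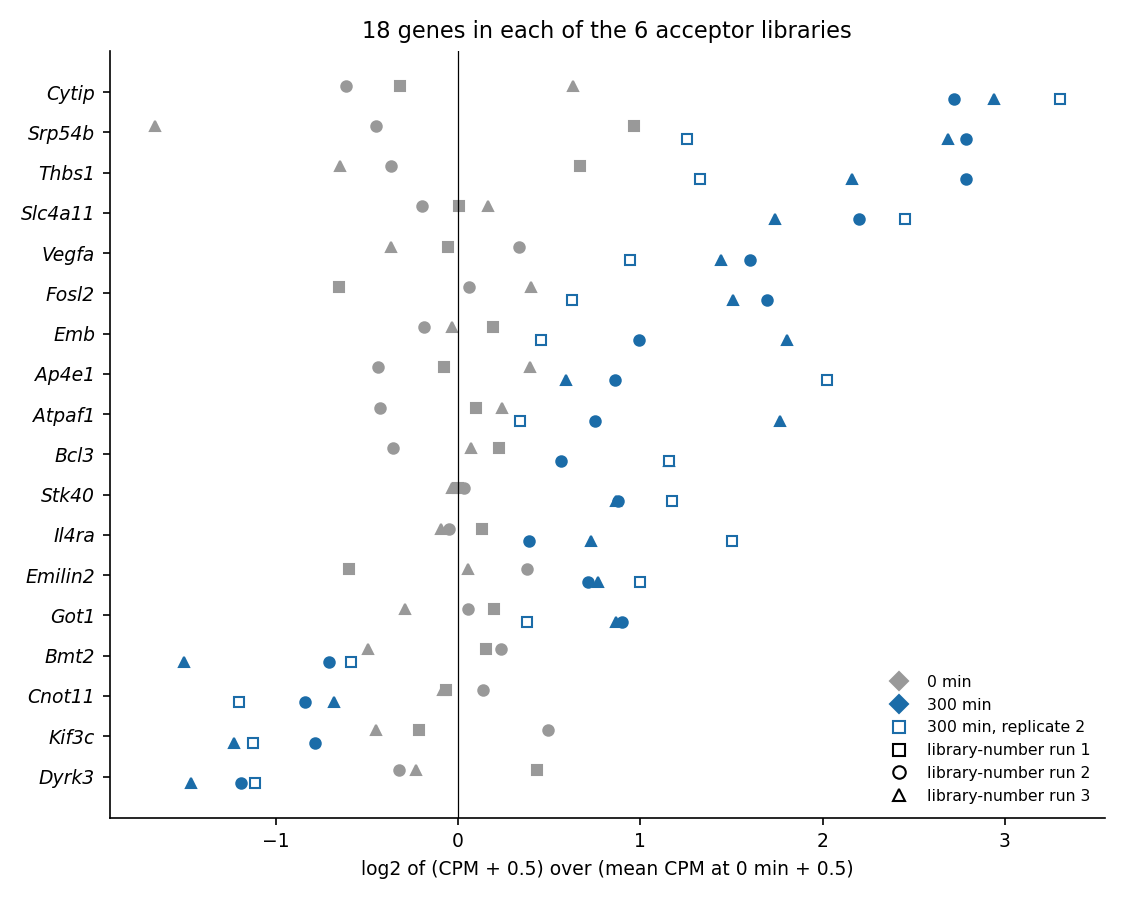
The 18 genes in each of the 6 acceptor libraries, as log2 of (CPM + 0.5) over the mean CPM at 0 min plus 0.5, with grey marks for 0 min, blue for 300 min, an open mark for replicate 2 at 300 min and a shape for each run of library numbers. Groups do not overlap for any of these genes, which the rule that chose them required, and replicate 2 is the highest library for Cytip (76.6 CPM), Il4ra (227) and Ap4e1 (80.8), among others.

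No gene was called lower, so the 10 with the smallest p on that side are given as values. They were Cnot11, Mynn, Ccdc51, Dyrk3, Kif3c, Ighmbp2, Lox, Gm43464, Ints13 and Tcp10b, and their edgeR Benjamini-Hochberg adjusted p-values lay between 0.425 and 0.566. Mynn, a zinc finger protein, had 5.89, 3.55 and 5.19 CPM and then 1.30, 0.655 and 2.22. Ints13, a subunit of the Integrator complex, had 11.5, 9.89 and 11.2 and then 6.34, 2.88 and 7.36, and Ighmbp2, a helicase, 16.4, 13.5 and 13.6 and then 11, 2.88 and 5.97, both lowest in replicate 2. Lox, the enzyme that crosslinks collagen, had 20.9, 22.2 and 18.9 and then 14.9, 9.30 and 10.2. All of the 10 but Tcp10b had no overlap between times, which a choice by smallest p favours, and 4.08% of all genes were lower without overlap. Tcp10b had no reads at 300 min and 0.542, 0 and 2.47 CPM at 0 min.

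Levels at times that the rule for the 18 genes did not use placed their furthest mean before 300 min for 9 of them. Of the 14 that stood higher, Vegfa and Fosl2 had their highest mean at 60 min and 5, among them Cytip, Thbs1 and Got1, at 150 min, and 7, among them Il4ra and Slc4a11, at 300 min. Without replicate 2 the mean of Il4ra at 300 min was 119 CPM, equal to its 119 at 150 min, so its highest mean at 300 min rests on that library. Vegfa had a mean of 24.9 CPM at 60 min and 12.9 at 300 min, and Fosl2 78.5 and 47.8. At 60 min 6 of the 14 had all libraries above all at 0 min and 2 of the 4 had all below, against 3.2% and 2.74% of all genes. At 150 min 10 of the 14 had all libraries above all at 0 min, and over all genes 4.61% did. The 0 min libraries are shared with the rule, so this count is a description. Against 150 min, 0 genes were called at 300 min by edgeR (0% of 13034), DESeq2 or limma-voom, and 862 passed an unadjusted p under 0.05 (6.61%), or 160 without replicate 2.

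Many genes stood apart in replicate 2 at 300 min alone. Of 5294 genes with a mean of at least 20 CPM over the 6 libraries, 511 were more than 2-fold above all 5 other libraries in it and 628 more than 2-fold below, against at most 1 and 4 in any other library. Of the 761 genes higher at 300 min at an unadjusted p under 0.05 (5.84%), 540 had that mean and 349 of these were among the 511. Of the 284 lower (2.18%), 113 had it and 49 were among the 628. Without the library 271 of 13463 genes passed (2.01%), 172 higher (1.28%) and 99 lower (0.735%), 0 were called by edgeR, and 156 genes passed in both. The genes above had a median longest annotated transcript of 2766 bases and 54.4% GC, those below 2911 bases and 48.3%, and all 5294 had 3251 bases and 50.1%. The part of transcript length, GC content and depth in these differences was not tested.

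**Figure D3:**
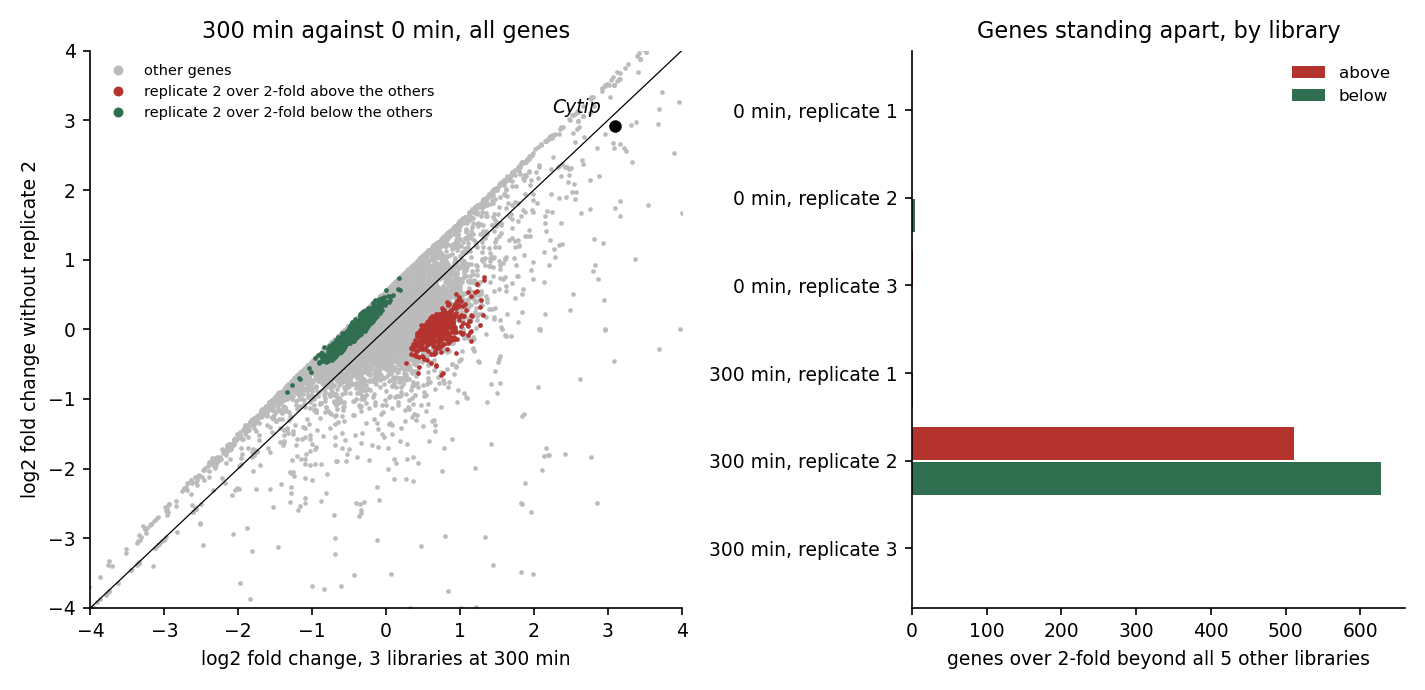
Left, fitted log2 fold change of each gene at 300 min against 0 min with all 3 libraries at 300 min (x axis) and without replicate 2 (y axis), coloured where replicate 2 lay over 2-fold above or below all 5 other libraries, on axes that end at 4 log2 units, beyond which 173 of 13034 genes lie. Right, the number of genes standing over 2-fold apart in each library, 511 above and 628 below in replicate 2 at 300 min and at most 4 elsewhere. Cytip lies near the diagonal, at 3.09 and 2.92.

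Among microglial genes this library often stood alone. C1qa, a chain of the complement starter C1q, had 2135, 3032 and 2880 CPM at 0 min and 3188, 13846 and 2384 at 300 min. Its fitted difference was 1.27 ± 0.43 log2 units (adjusted p = 0.575), and 0.06 without replicate 2. C1qb had 3576, 3945 and 4423 and then 4959, 12379 and 3895. For Csf1r the log2 difference was 0.77 ± 0.30 with replicate 2 and 0.04 without. In the other direction B2m, the light chain of MHC class I, had 3405, 2786 and 3808 CPM and then 2650, 772 and 3391, and Cst3, the protease inhibitor cystatin C, 1817, 2157 and 2321 and then 2794, 419 and 1729. Replicate 2 was the outlying library in each of these, and the other 2 libraries at 300 min lay far nearer to 0 min.

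Gene lists were read by their members' counts beside those of all genes, for which the median log2 difference was 0. Of 32 pathway lists, 31 had 0 members called, and the list of adhesion, matrix and protrusion had 1 of 36, Cytip (0.00767% of all genes). Medians ran from −0.22 to 0.23 with 3 libraries at 300 min and from −0.25 to 0.23 without replicate 2. Without that library 0 members were called in all 32. At an unadjusted p under 0.05, 5.84% of all genes were higher and 2.18% lower, or 1.28% and 0.735% without replicate 2. The list counts below are to be read beside these shares. Counts such as 2 of 39 for cell cycle or 2 of 34 for microglial transcription factors lie near them and are no result about the list.

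Glycolysis and hypoxia genes had the most members at an unadjusted p under 0.05, 9 of 38 higher and 0 lower, against 5.84% of all genes. They were Slc16a3, Vegfa, Hilpda, Mxi1, Pfkl, Pfkp, Hk1, Pfkm and Aldoa. Without replicate 2 there were 5, Vegfa, Mxi1, Slc16a3, Hilpda and Ankrd37, against 1.28% of all genes, and the list's median was 0.23 with the library and 0.19 without it. Slc16a3, the lactate exporter MCT4, had 52.2, 40.4 and 49.7 CPM and then 70.9, 203 and 84.5. All 3 lay above 0 min, and the difference of 1.33 ± 0.31 log2 units became 0.71 without replicate 2. Hilpda, a lipid droplet protein that hypoxia induces, had 42.3, 54.3 and 37.9 CPM and then 91.2, 82.8 and 74.8, a difference of 0.89 ± 0.33 log2 units, and 0.89 ± 0.36 without replicate 2. Mxi1, an antagonist of MYC, had 6.84, 9.19 and 4.37 CPM and then 19.9, 8.91 and 16.4, where replicate 2 lay within the 0 min range. Among the enzymes, replicate 2 was the highest library for Aldoa, an aldolase, at 1040, 701 and 963 CPM and then 827, 2008 and 1031, and for Pkm, pyruvate kinase, at 1970, 1311 and 1931 and then 1510, 3742 and 1896. The list did not move as a block in that library. Of 23 members with a mean of at least 20 CPM, 2 were over 2-fold above the other 5 libraries in it, Pfkp and Slc16a3. Another 2, Eno1 and Slc2a1, were over 2-fold below.

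Of 25 cytokines and growth factors tested, 4 were higher at an unadjusted p under 0.05, Vegfa, Tgfb1, Il1b and Il19, and 0 lower, and without replicate 2 the 3 were Vegfa, Il1b and Il19. Il1b, interleukin-1 beta, had 119, 50.9 and 105 CPM at 0 min and 256, 117 and 425 at 300 min. Its difference was 1.54 ± 0.68 log2 units (edgeR Benjamini-Hochberg adjusted p = 0.61), with 0.15, 1.83 and 2.32 within runs 1, 2 and 3, and the control libraries spread from 39.3 to 401 CPM. Tnf had 104, 50.3 and 137 CPM and then 41.5, 121 and 85.6, and Il1rn, the antagonist of the interleukin-1 receptor, 547, 289 and 664 and then 541, 626 and 529. Of 22 chemokines, 1 was higher, Ccl17, and 0 without replicate 2. Ccl5 had 3091, 1521 and 4804 CPM and then 1674, 5069 and 2830, and Ccl2 43.5, 12.3 and 71.2 and then 7.33, 43.4 and 41.4, all with overlapping groups.

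NF-kB subunits, inhibitors and feedback genes had 1 of 31 members at an unadjusted p under 0.05, Bcl3, and 2 without replicate 2, Bcl3 and Zc3h12a, an RNase that degrades cytokine messages. Nfkbia, the main inhibitor of NF-kB, had 539, 431 and 551 CPM and then 428, 424 and 556. Immediate early and MAPK feedback genes had 4 of 37 higher, Jund, Fosl2, Ier3 and Nr4a3, and 2 lower, Atf3 and Egr2. Without replicate 2 the members were Fosl2, Nr4a3 and Dusp2, all higher. Fos, the AP-1 subunit that responds first to many signals, had 72.1, 81.0 and 75.9 CPM and then 110, 155 and 125, all above 0 min (0.77 ± 0.41 log2 units, adjusted p = 0.646). Jund had 130, 119 and 121 CPM and then 165, 632 and 119, with replicate 2 far above the rest. Pde4b, which degrades cyclic AMP and was chosen after values were seen, had 55.5, 39.8 and 45.0 CPM and then 77.9, 96.0 and 109, with within-run differences of 1.09, 0.96 and 0.97 (1.01 ± 0.43 log2 units, adjusted p = 0.605).

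Interferon response genes had 0 of 43 members at an unadjusted p under 0.05 in either direction. Their median was 0.01 with 22 members above 0, and −0.25 with 6 above 0 without replicate 2. That library belongs to run 1, whose sum over the list was the highest at 0 min. Within runs 1, 2 and 3 the sum was 15483, 11197 and 6757 CPM at 0 min and 17917, 11296 and 7027 at 300 min. The part of the missing run in the lower median was not tested. Rsad2, an antiviral enzyme, had 1450, 506 and 2195 CPM and then 401, 2056 and 1514, and Cxcl10, an interferon-induced chemokine, 210, 68.5 and 298 and then 78.4, 52.0 and 169. Groups overlapped in both genes, and for Rsad2 the run 3 library was the lowest at both times. Antigen presentation genes had a median of −0.08, and −0.17 without replicate 2 with 4 of 22 above 0. Their sum in runs 1, 2 and 3 was 13467, 11159 and 9435 CPM and then 10238, 10862 and 9349. H2-K1 had 2817, 2433 and 3599 CPM in replicates 1, 2 and 3 and then 2959, 2151 and 2789.

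Genes of microglial identity and of the disease-associated state stood near 0, with medians of −0.01 and 0.02 that were the same without replicate 2. Cx3cr1, the fractalkine receptor, had 262, 640 and 138 CPM and then 515, 455 and 233. P2ry12, a nucleotide receptor of resting microglia, was low, at 4.54, 5.87 and 3.30 and then 3.13, 0.655 and 3.75. Trem2, a lipid receptor, had 261, 417 and 228 and then 396, 576 and 316, and Apoe, its lipoprotein ligand, 11455, 24896 and 13391 and then 28893, 24737 and 11524. Cx3cr1 and Apoe overlapped between times and were highest in run 3 at both, as the neuronal marker sum was. The astrocyte marker sum was also highest in run 3 at both times, at 39.6 CPM against 21 and 14.3 at 0 min and 47.5 against 30.4 and 20.8 at 300 min. The part of neuronal and astrocyte RNA in this was not tested. Igf1 had 2025, 1475 and 1724 CPM and then 1652, 1583 and 1965.

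Scavenger, Fc and complement receptors had 5 of 30 higher at an unadjusted p under 0.05, Itgam, C1qa, C1qb, Fcgr4 and Fcgr3, and 2 without replicate 2, Itgam and Fcgr3. Itgam, the alpha chain of complement receptor 3, had 126, 160 and 122 CPM and then 187, 344 and 210, all above 0 min (0.86 ± 0.24 log2 units, 0.55 without replicate 2, not called). Fcgr3, a low-affinity IgG receptor, had 262, 310 and 193 and then 422, 335 and 336. JAK-STAT and SOCS feedback genes had 4 of 34 higher, Il4ra, Csf2rb, Socs3 and Il10ra, and 2 without replicate 2, Socs3 and Il4ra. Socs3, an inhibitor of cytokine receptors, had 4.40, 1.39 and 3.79 CPM and then 8.40, 0.655 and 13.6, where replicate 2 lay below all 0 min libraries. Toll-like and C-type lectin receptors had 1 of 23, Clec4a1, and 1 without replicate 2, Tlr2, which had 54.3, 39.1 and 47.0 and then 71.9, 26.2 and 68.2.

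Proteasome and ubiquitin genes had 8 of 37 higher and 1 lower at an unadjusted p under 0.05, and 0 and 0 without replicate 2. Psmc4, an ATPase of the proteasome cap, had 121, 122 and 124 CPM and then 136, 403 and 114, with replicate 2 far above the other 5. Lysosome genes had 5 of 46 higher and 2 lower, and 1 higher without it, Ctsc. Ctsd, cathepsin D, had 10428, 9818 and 9338 CPM and then 9682, 22500 and 10250, whereas Ctsb, cathepsin B, had 8281, 7506 and 8751 and then 8909, 8065 and 8566. Autophagy genes had 2 of 37 higher and 2 lower, near the 5.84% and 2.18% of all genes, and none without replicate 2. Sqstm1, an autophagy cargo receptor, had 1871, 1150 and 1762 CPM and then 1185, 3285 and 1662. Rab GTPases and vesicle traffic had 3 of 41 higher and none without it, and Rab5c, of early endosomes, had 1153 CPM in replicate 2 at 300 min against 331 to 396 in the other 5.

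Ribosomal protein genes had 18 of 44 members above 0 and a median of −0.02 with replicate 2, and 42 of 44 and 0.14 without it, with 0 called. Run 1, which loses its 300 min library in that fit, had the lowest sum at 0 min. In runs 1, 2 and 3 the sum was 23193, 27506 and 26954 CPM and then 25389, 27310 and 29467. The part of the missing run was not tested. Rps20 had 1358, 1331 and 1277 CPM and then 1513, 3772 and 1408. Most members that stood apart in replicate 2 went the other way. Of 43 members with a mean of at least 20 CPM, 2 were over 2-fold above the other 5 libraries in it, Rpl8 and Rps20. Over 2-fold below were 10 of them, against 511 above and 628 below of all 5294 genes. Integrated stress response genes had 2 of 38 higher, Cebpb and Atf4, and 1 lower, and 0 without it. Atf4 had 597, 517 and 725 CPM and then 525, 1980 and 568. Heat shock genes had 3 of 28 higher and 1 lower, the respiratory chain 2 of 40 higher, and both had 0 without replicate 2. Of the oxidative stress list 2 of 32 were higher, Sod1 and Tkt, and 0 without replicate 2. Hmox1, which degrades heme, had 39.8, 28.0 and 22.6 CPM and then 42.8, 45.3 and 34.2. Acute-phase genes had 1 of 15 higher, Il4ra, with and without replicate 2. Lcn2, which binds bacterial iron carriers, had 2.71, 0.618 and 0.165 CPM and then 3.74, 1.70 and 0.902, and Saa3, an acute-phase protein, 5343, 2047 and 2138 and then 1958, 1703 and 4317.

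Cholesterol synthesis genes had a median of 0.21, and 0.19 without replicate 2, with 2 of 23 higher and none without it. LXR targets and lipid droplet genes had 1 of 30 higher, Hilpda, and 1 lower, Dgat2, and only Hilpda without replicate 2. Lpl, lipoprotein lipase, had 5633, 4690 and 4437 CPM and then 4311, 2872 and 4878. Purine receptors and enzymes had 3 of 18 higher, P2ry2, P2ry6 and Entpd1, and 1 lower, P2ry1, and Adora2b alone without replicate 2. Cell cycle genes had 2 of 39 higher, E2f1 and Ccnd3, and 2 without replicate 2, Ccnd3 and the inhibitor Cdkn1b. Receptors of the TNF family and costimulation had 2 of 22 higher, itaconate, nitric oxide and arginine metabolism 2 of 16, and prostaglandin and leukotriene enzymes 0 of 19, and without replicate 2 these were 0, 1 (Ass1) and 0. Apoptosis and p53 genes had 2 of 27 higher and 0 without it, and microglial transcription factors 2 of 34, Cebpb and Nfil3, and 2 without it, Crem and Id1.

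**Figure D4:**
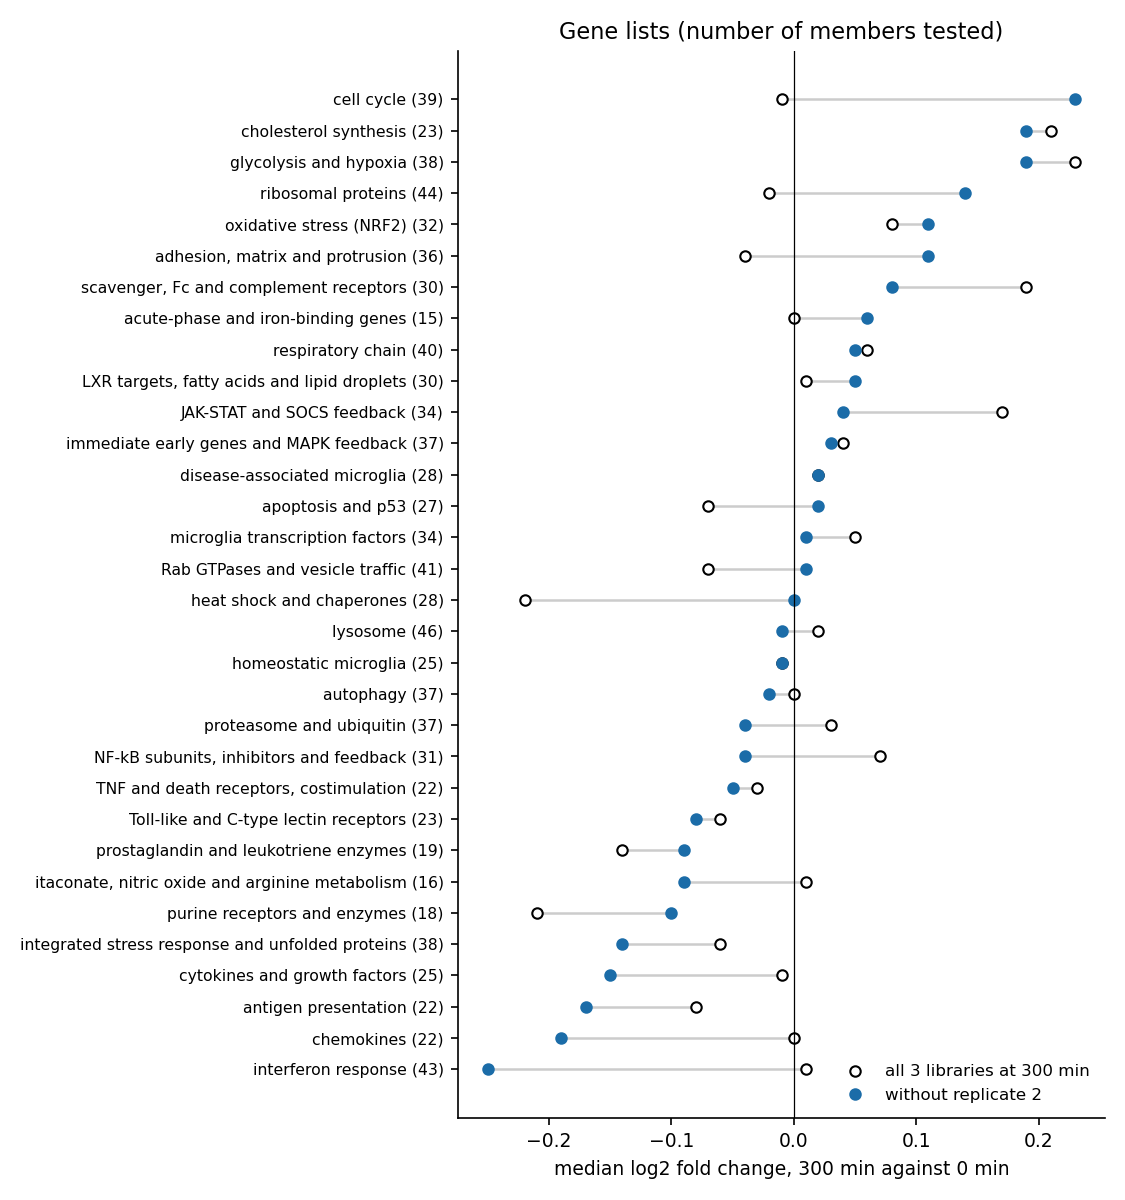
Median fitted log2 difference of each of the 32 pathway lists at 300 min against 0 min, with all 3 libraries at 300 min (open) and without replicate 2 (filled), and the number of members tested in brackets. Interferon response moved from 0.01 to −0.25 and ribosomal proteins from −0.02 to 0.14, while glycolysis and hypoxia stood at 0.23 and 0.19.

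A second group at 0 min, the control, shares no library with acceptors at 0 min, but both comparisons use the same 300 min libraries. Its labels give no stain or vessel. Against it 3 genes were higher in acceptors at 300 min and 0 lower (0.023% and 0% of 13034). Cytip had 0.361, 12.2 and 2.83 CPM in the control, so replicate 2 of the control stood highest and still below 300 min, and it differed by 3.59 ± 0.56 log2 units (edgeR Benjamini-Hochberg adjusted p = 0.00425). Il4ra had 56.6, 76.0 and 63.8 CPM in the control and differed by 1.24 (adjusted p = 0.0195). Hemk1, a methyltransferase of translation release factors, had 0.721, 1.94 and 0.690 in the control and 3.74, 13.8 and 7.08 at 300 min and differed by 2.85 (adjusted p = 0.039). Without replicate 2 at 300 min only Cytip was called (3.42 log2 units, adjusted p = 0.0227), and Il4ra and Hemk1 both had an adjusted p of 0.599.

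With the run of library numbers as a replicate block, 17 genes were called against the control, 9 higher and 8 lower. The 6 added on the higher side were Tgm2, a transglutaminase, Thbs1, Eva1b, Ptpn1, Slc43a2 and Smim3. Lower were Cxcl10, Dyrk3, Slco4a1, Bmpr1a, Inpp5b, Pomk, Ppm1k and Tmem38b. The count was 525 without replicate 3 at 300 min, 20 without replicate 1 at 300 min, 37 without control replicate 2, 1 without control replicate 1 and 0 without control replicate 3. In the comparison with acceptors at 0 min the block called 1 gene, Cytip (3.12 log2 units, adjusted p = 0.0285), and 0 without replicate 2 at 300 min (2.85, adjusted p = 0.0521).

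Over the same span donors had 0 genes called by edgeR, DESeq2 or limma-voom (0% of 13034), and 605 at an unadjusted p under 0.05 (4.64%). For the difference between populations 445 genes passed an unadjusted p under 0.05 (3.41%). Vegfa had 23.4, 15.2 and 37.7 CPM in donors at 0 min and 18.2, 23.6 and 11 at 300 min, and Fosl2 35.3, 51.6 and 126 and then 64.7, 31.7 and 34.0. Both genes were below donors on average in acceptors at 0 min and overlapped donors at 300 min. Their differences of change, 1.97 and 2.08 log2 units, were not called (edgeR Benjamini-Hochberg adjusted p = 1 for each). Hilpda stood apart, at 1117, 628 and 1073 CPM in donors at 0 min and 865, 609 and 332 at 300 min against 74.8 to 91.2 in acceptors, and Il4ra likewise, at 957, 710 and 692 in donors at 300 min.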

How the data were processed

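Raw counts and a normalized table, each of 16144 genes, were deposited by the authors for 39 libraries (13 groups of 3). Per the labels, libraries were QuantSeq 3′ FWD, read as single 100-base reads, so most reads mark transcript ends. Per the submitters' processing notes STAR, Partek, DESeq2 and mm10 were used, with versions not given in the sources used here. The deposited normalized signal equals the counts divided by a factor per library and was used only for that check. Counts of 13034 genes that passed edgeR's filterByExpr were fitted with edgeR 4.0.16 in R 4.3.3 (TMM, quasi-likelihood, group means over all libraries, Benjamini-Hochberg adjustment, threshold 0.05), since all groups share one estimate of spread. The method was tested on simulated data, where 91% of 4-fold and 42% of 2-fold changes were recovered. These shares hold for the simulated counts only. Between acceptors at 300 min and 0 min, Thbs1 and Slc4a11 differed by 2.60 and 2.50 log2 units, more than 4-fold. Neither was called (edgeR Benjamini-Hochberg adjusted p = 0.425 and 0.444). Their true change is not known, so these 2 genes do not measure the recovery. The simulation changed 100 genes at each fold, all above a minimum mean level, and built in no outlying library. The measured data hold one, replicate 2 at 300 min, so the shares cannot be carried over to them. Lack of a call in the measured libraries does not show lack of change.

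Members and lists were chosen with earlier results of these data known. Named genes were the called genes, the 10 lower genes of smallest p, a set named in every comparison, the 2 most abundant genes of each list, and genes stated as chosen after values were seen, which include every gene named from within a list beyond those 2. Alternatives were total-count scaling, DESeq2 size factors, no filter, DESeq2 1.42.0, limma-voom 3.58.1, other sample sets, each library left out and a block for the run of library numbers. Deviations of 0 min and 300 min libraries from their group means correlated at 0.136, 0.189 and 0.269 within runs and −0.242 to 0.0501 between runs. The runs were therefore used as a possible pairing. These correlations are weak, and the labels state no batch. Labels do not say whether replicates came from separate cultures, so p-values measure the spread between these samples. Floors cover counting error only.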

Additional observations from a re-analysis of the deposited data

Results flagged for a closer look

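Cytip was singled out because its change from 0 to 300 min differed between populations. Acceptors had 7.32 CPM on average at 0 min and 62.5 at 300 min, donors 22.5 and 9.10, and the difference of changes was 4.40 ± 0.76 log2 units (edgeR Benjamini-Hochberg adjusted p = 0.0212). All 3 acceptor libraries were higher and all 3 donor libraries lower at 300 min. The adjusted p ranged from 1.77e-05 to 0.206 over 19 alternatives, 11 of which called it.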

How the results depend on the processing

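For acceptors at 300 min against 0 min, where 1 gene was called, 0 were called with total-count scaling, with only the groups compared (also without replicate 2 at 300 min), and with the replicate block without that library. DESeq2 called 5, all higher. They were Cytip (DESeq2 adjusted p = 2.18e-05) and Ap4e1, Eva1b, Il4ra and Slc16a3 (0.0433 each). Ap4e1, Il4ra and Slc16a3 were highest in replicate 2 at 300 min. In edgeR, leaving out each library gave 0 to 19 (19 without replicate 3 at 300 min, 0 otherwise). Against the control, where 3 were called, the replicate block gave 17, DESeq2 74 and only the groups compared 0, and leaving out each library gave 0 to 525. In donors the block called 1 gene, and leaving out each library called 0. The difference between populations had 0 to 1 called with a library left out. The block changed no other call. Csf1r had a log2 difference of −0.07 under the replicate block without replicate 2, against 0.77. The cause of these changes was not tested beyond fewer samples or genes in the fit. Cytip was called in 7 of 16 alternatives for this comparison, 11 of 13 against the control and 11 of 19 for the difference of changes. Some genes that were not called changed sign over the alternatives. Tnf ranged from −0.61 to 0.10 log2 units, Saa3 from −0.82 to 0.35 and Atf4 from −0.17 to 1.06. Others kept their sign, such as Il1b at 0.99 to 1.94. With 3 libraries a group the smallest p an exact permutation test allows is 0.1, and levels under 0.203 to 0.393 CPM rest on fewer than 3 reads in a library.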
